A study of Mus musculus with 69 samples.

Results

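The 10 genes followed here belong to the mononuclear phagocyte system of the mouse kidney: the 2 ligands of the CSF1 receptor (Il34 and Csf1), the receptor itself (Csf1r), and 7 genes that macrophages express (Cd163, Mrc1, Itgam, Itgax, C1qa, Cd68 and Lyz2). They were chosen by symbol, so the members are 10 of the 24411 genes in the count table, and all 10 passed the filter on low counts that left 21175 genes for testing. Of interest was how they answered 2 stimuli of acute kidney injury, ischemia and volume depletion.

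The mice expressed uracil phosphoribosyltransferase (Uprt), an enzyme that lets a cell build the uracil analog 4-thiouracil (4-TU) into new RNA, after Cre had removed a stop cassette. Hoxb7Cre;UPRTf/+ mice carry it in the collecting duct, and mice written Atp6b1v1Cre;UPRTf/+ in the labels (Atp6v1b1Cre below) in intercalated and related cells, with scattered interstitial cells in some kidneys. All mice received 430 mg/kg of 4-TU 4 hours before the kidney was taken, whatever their group. Thiolated RNA was then biotinylated and pulled down, which gave 48 pulldown libraries, and 21 libraries of total kidney RNA came from control mice. Ischemia was a bilateral clamp of 10 minutes, 24 hours before the 4-TU was given, and volume depletion was 72 hours without food and water. Comparisons of the stimuli used mice of 5.5 months: in males, 4 control, 4 ischemic and 3 volume-depleted Hoxb7Cre mice and 4, 3 and 4 Atp6v1b1Cre mice, and in females 4, 3 and 4 Hoxb7Cre mice and 4, 3 and 3 Atp6v1b1Cre mice. Controls of 3 months, 5 pulldown and 5 total RNA libraries, entered the comparisons of controls.

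Colony-stimulating factor 1 and interleukin 34 are separate cytokines that bind 1 receptor, the tyrosine kinase CSF1R, on monocytes and macrophages, and signals from it keep these cells alive and let them divide. In the kidney both ligands can be made by tubular epithelium, whereas the receptor and the 7 other genes are used as markers of phagocytes in the interstitium, of which some, Itgam and Cd68 among them, are also expressed by other kidney cells. A pulldown enriches RNA made in Uprt cells and still holds RNA from other cells, so a macrophage gene in a pulldown is not by itself expression in the duct. In bulk RNA, fewer cells of a type and less RNA per cell cannot be told apart.

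Library numbers in the labels fall into 3 runs, called series A, B and C here, and conditions are spread unevenly over them. All injured Hoxb7Cre libraries are of series A, while the Hoxb7Cre male controls are 2 of series A and 2 of series B and the female controls 1 of series A, 1 of series B and 2 of series C. Each Atp6v1b1Cre group of either sex has libraries of series A and of series B. Libraries held 12618100 to 30305500 counted reads (median 20868400), sex-linked genes matched the labelled sex in 69 of 69 libraries, and no pair of libraries within a group was a duplicate. Levels are given as CPM, the counts of a gene scaled to a common library total, after TMM scaling over all 69 libraries. A gene is called when edgeR's quasi-likelihood test gave a Benjamini-Hochberg adjusted p under 0.05 over the 21175 genes and the log2 fold change was 1 or more in either direction, and it passed the test when the adjusted p alone was met. The labels do not say how mice were shared between libraries, so these p-values measure the spread between the libraries. Taken in number order within each series, the control total RNA libraries repeat the control pulldowns in genotype, sex and age. A pulldown and its total RNA counterpart could thus share a mouse. The tests of pulldown against total RNA treated all libraries as independent and left such pairing out.

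Promoters are shown for 3 members whose pulldown level moved in Hoxb7Cre males after volume depletion, because they move in opposite directions: Csf1 and Cd68, which rose, and Itgam, which fell. Each is 250 bases before to 50 after the RefSeq start site, 5′ to 3′ on the gene's strand, on GRCm38.p6, at chr3:107760420-107760719 (minus), chr11:69666121-69666420 (minus) and chr7:128062390-128062689 (plus). Capitals mark letters that match a searched motif on either strand.
Csf1: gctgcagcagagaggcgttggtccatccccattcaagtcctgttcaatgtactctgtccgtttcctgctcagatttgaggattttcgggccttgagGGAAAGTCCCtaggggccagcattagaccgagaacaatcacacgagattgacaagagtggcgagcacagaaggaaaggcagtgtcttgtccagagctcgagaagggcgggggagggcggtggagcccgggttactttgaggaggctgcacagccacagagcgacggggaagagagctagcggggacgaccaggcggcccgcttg
Cd68: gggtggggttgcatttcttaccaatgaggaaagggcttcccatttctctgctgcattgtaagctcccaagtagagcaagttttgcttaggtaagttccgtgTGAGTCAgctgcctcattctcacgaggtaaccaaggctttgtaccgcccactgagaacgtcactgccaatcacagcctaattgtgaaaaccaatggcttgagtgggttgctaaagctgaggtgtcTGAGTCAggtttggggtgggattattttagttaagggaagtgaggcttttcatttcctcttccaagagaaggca
Itgam: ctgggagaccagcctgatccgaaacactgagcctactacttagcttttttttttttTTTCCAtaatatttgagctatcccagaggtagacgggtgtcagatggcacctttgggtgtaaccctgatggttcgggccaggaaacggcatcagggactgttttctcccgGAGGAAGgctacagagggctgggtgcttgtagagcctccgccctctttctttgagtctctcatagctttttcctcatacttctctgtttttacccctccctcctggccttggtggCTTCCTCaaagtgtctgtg
The motifs searched were PU.1 (GAGGAAG), AP-1 (TGANTCA), STAT (TTCNNNGAA), NF-kB (GGG, any 3 letters, TTCC) and the core of the tonicity factor NFAT5 (TGGAAA), and 13.6%, 7.81%, 8.3%, 5.56% and 21.4% of 32851 RefSeq promoters of the same length hold them. The Csf1 window held 1 NF-kB match and none of the other 4 motifs. The Cd68 window held 2 AP-1 matches, TGAGTCA each time, and the Itgam window held 2 PU.1 matches and 1 NFAT5 core match. RefSeq promoters were found and searched for 7 of the 10 members. Mrc1 held 2 PU.1 matches, Cd163 2 NFAT5 core matches, Itgax 1 AP-1 match and Lyz2 none. These matches describe letters in the windows and not bound sites.

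In control mice the members stood at different levels, compared per kilobase of exon. In Hoxb7Cre pulldowns Csf1r came first (8.18 ± 2.77 CPM per kb, SD, n = 10), followed by Il34 (7.02 ± 1.72), and these neighbours did not differ beyond their spread. Cd68 (3.39 ± 2.39), Csf1 (3.10 ± 1.26), C1qa (2.98 ± 1.01) and Lyz2 (2.11 ± 0.904) followed with overlapping spreads, and Itgam, Itgax, Mrc1 and Cd163 lay between 0.822 and 0.492 CPM per kb. In Atp6v1b1Cre pulldowns (n = 11) the order opened with C1qa (18.7 ± 3.06), the first chain of complement C1q, then Csf1r (12.2 ± 2.54), Il34 (8.21 ± 3.27) and Lyz2 (7.37 ± 3.27). In total RNA (n = 21) Lyz2, the lysozyme of myeloid cells, stood first at 25.1 ± 9.41 CPM per kb.

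**Figure D1:**
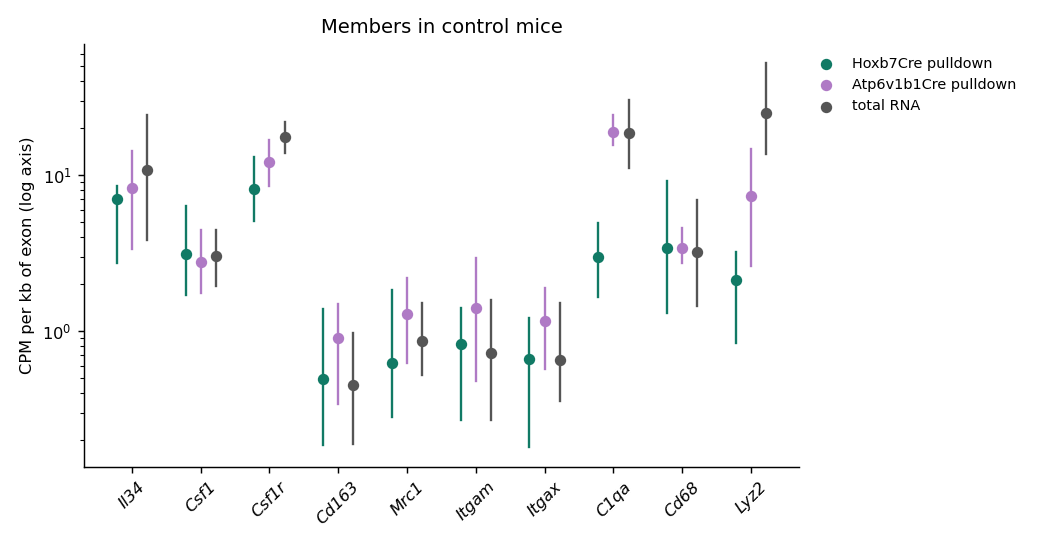
Level of the 10 members in control mice of both sexes and ages, as CPM per kilobase of exon on a log axis, in Hoxb7Cre pulldown, Atp6v1b1Cre pulldown and total RNA libraries. Points are means and lines run from the lowest to the highest library. C1qa and Lyz2 lie lowest in the Hoxb7Cre pulldowns, while the ranges of Il34, Csf1 and Cd68 overlap between the 3 kinds of library.

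The macrophage genes differed in how they were spread over the kinds of library. Against Hoxb7Cre controls, Atp6v1b1Cre control pulldowns held more C1qa (log2 fold change 2.61 ± 0.16, SE, 6.12-fold, adjusted p = 2.98e-16) and more Lyz2 (1.76 ± 0.26, 3.39-fold, adjusted p = 1.34e-06). These were 2 called members of 10, where 4.11% of all tested genes were called. Csf1r, Cd163, Mrc1 and Itgax also passed the test, with differences of 0.64 to 0.95, so that 6 of 10 passed where 9.93% of all genes did. Il34 and Csf1 differed between the drivers by less than 0.1 on the log2 scale, and the 95% interval of Csf1 ran from -0.41 to 0.24. Cd68 (0.12, adjusted p = 0.87) and Itgam (0.70, adjusted p = 0.104) did not pass either. Against total RNA, Lyz2 was 11.6-fold lower in Hoxb7Cre pulldowns and 3.41-fold lower in Atp6v1b1Cre pulldowns, and C1qa was 6.02-fold lower in the former and level in the latter (log2 fold change 0.03 ± 0.12). In those 2 comparisons 3 and 1 of the 10 members were called, all lower, where 32.5% and 27.7% of all genes were. Short of the call, Cd163 (0.94), Mrc1 (0.48), Itgam (0.95) and Itgax (0.86) passed the test as higher in Atp6v1b1Cre pulldowns than in total RNA, and in Hoxb7Cre pulldowns Cd163, Itgam, Itgax and Cd68 differed from total RNA by 0.05 to 0.25 and did not pass.

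Il34 rose with ischemia in males of both drivers and showed no detectable difference with volume depletion. Il34 lies at chr8:110741829-110805924 on the minus strand (GRCm38). In Hoxb7Cre males it stood at 13.7, 13.6, 16.7 and 15.2 CPM in the controls, at 42.6, 71.3, 61.2 and 56.2 CPM after ischemia, and at 13.6, 16.2 and 15.0 CPM after volume depletion. Every ischemic library lay above every control, and the volume-depleted libraries lay within the range of the controls. The rise with ischemia was 3.94-fold (log2 1.98 ± 0.24, adjusted p = 7.37e-05), and the difference with volume depletion was 0.02 ± 0.25, with a 95% interval of -0.50 to 0.54.

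Il34 rose with ischemia in Atp6v1b1Cre males too, with more scatter. Their controls held 13.7, 26.1, 15.6 and 27.7 CPM of Il34, the ischemic libraries 64.1, 39.1 and 88.5, and the volume-depleted libraries 18.7, 12.8, 16.9 and 15.6. Again no ischemic library overlapped a control. The rise was 3.06-fold (1.61 ± 0.24, adjusted p = 7.28e-04) and the difference with volume depletion was -0.36 ± 0.23 (adjusted p = 0.317). Within series A alone the ischemic rise of Il34 was 2.07 in Hoxb7Cre males and 1.37 in Atp6v1b1Cre males, and within series B, with 1 ischemic library, it was 2.03 in Atp6v1b1Cre males.

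Il34 was the only called member of the 10 in both male comparisons of ischemia with control, where 2.3% of all genes were called in Hoxb7Cre and 2.82% in Atp6v1b1Cre pulldowns. Its change did not differ detectably between the drivers (-0.36 ± 0.33, Atp6v1b1Cre minus Hoxb7Cre, 95% interval -1.06 to 0.33). The genes whose level followed Il34 most closely over the 22 male pulldowns were Lrp8 (Pearson r = 0.92), Havcr1 (0.92), Krt20 (0.90), Cpe (0.89) and Mlkl (0.87), of 15126 genes compared. Havcr1 encodes KIM-1, the marker of the injured proximal tubule. These points share their libraries and groups, so the r values only describe likeness. Of 7 genes of an injury list, 5 were called higher after ischemia in each driver. The proximal tubule list moved differently: 0 of its 8 genes were called in Hoxb7Cre males and 4 fell in Atp6v1b1Cre males, where its summed level was 3475 to 5358 CPM in controls and 1509 to 1871 CPM after ischemia, and the part of other tubule cells in the rise of Il34 was not tested.

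**Figure D2:**
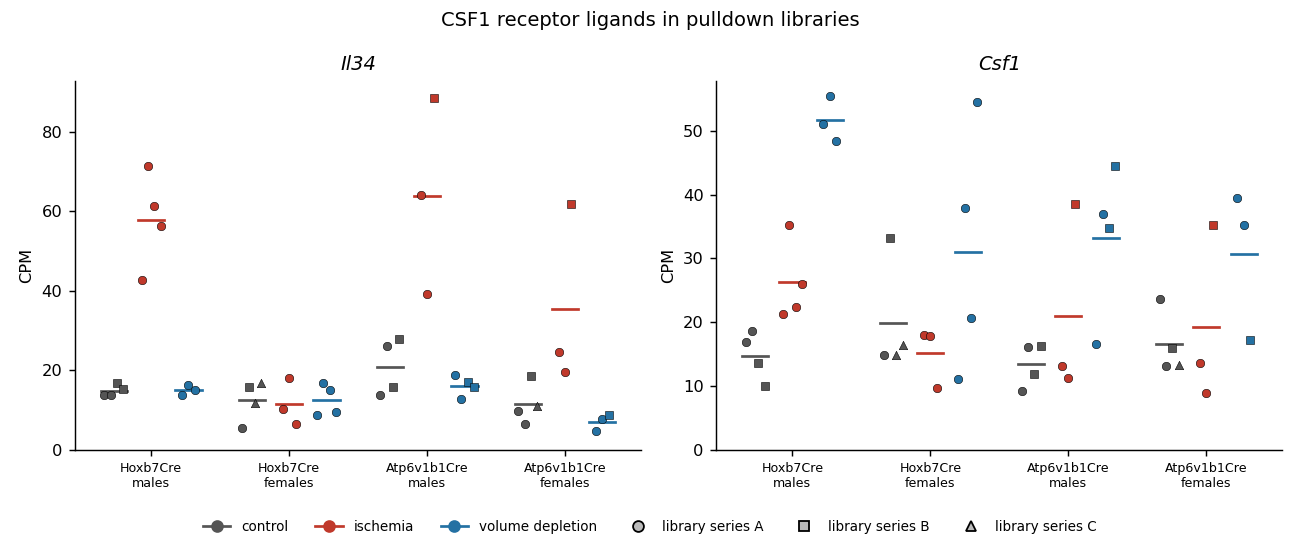
CPM of Il34 and Csf1 in each pulldown library of 5.5 months by driver, condition and sex, with a bar at the mean of each group and the library series as the shape of the point. In males Il34 is raised in the ischemic libraries (39.1 to 88.5 CPM) and Csf1 in the volume-depleted libraries (48.4 to 55.5 CPM in Hoxb7Cre and 16.6 to 44.5 CPM in Atp6v1b1Cre).

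Csf1, the other ligand, rose with volume depletion in males of both drivers. It lies at chr3:107741048-107760469 on the minus strand. Hoxb7Cre male controls held 16.8, 18.6, 13.5 and 10.0 CPM of Csf1, ischemic males 21.2, 35.2, 22.4 and 26.0, and volume-depleted males 51.1, 55.5 and 48.4. Both injured groups lay above all controls, and the volume-depleted libraries lay above all ischemic ones. With volume depletion Csf1 rose 3.52-fold (1.82 ± 0.35, adjusted p = 2.78e-04), and with ischemia the difference of 0.85 ± 0.32 did not pass the test (adjusted p = 0.126).

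In Atp6v1b1Cre males Csf1 stood at 9.21, 16.1, 11.9 and 16.3 CPM in controls and at 16.6, 37.04, 34.8 and 44.5 CPM after volume depletion, a 2.5-fold rise (1.32 ± 0.33, adjusted p = 0.00895). Groups did not overlap, though the lowest volume-depleted library was close to the highest control. Ischemic libraries held 13.2, 11.2 and 38.6 CPM, and the high one was the single library of series B. Within series A the ischemic difference was -0.06, and within series B it was 1.45 (adjusted p = 0.00286), so the answer of Csf1 to ischemia in this driver rests on 1 library. The rise with volume depletion was 1.09 within series A and 1.49 within series B, and 1.56 within series A in Hoxb7Cre males.

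The genes that followed Csf1 most closely over the male pulldowns were Smad3 (r = 0.93), Cdr2l (0.93), Fmnl2 (0.92), Stx11 (0.91) and Icam1 (0.91), the last an adhesion molecule for leukocytes. None is among the 5 nearest to Il34, and the 2 ligands themselves had an r of 0.01 with each other. Set directly against ischemia, volume depletion gave less Il34 in both drivers (-1.96 ± 0.26 in Hoxb7Cre and -1.98 ± 0.25 in Atp6v1b1Cre males, adjusted p = 7.27e-06 and 7.33e-06). It gave more Csf1 in Hoxb7Cre males (0.97 ± 0.34, adjusted p = 0.0308), which passed without ischemia replicate 5 and not without any 1 of the other 6 libraries, and the difference in Atp6v1b1Cre males did not pass the test (0.68 ± 0.35, adjusted p = 0.156).

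**Figure D3:**
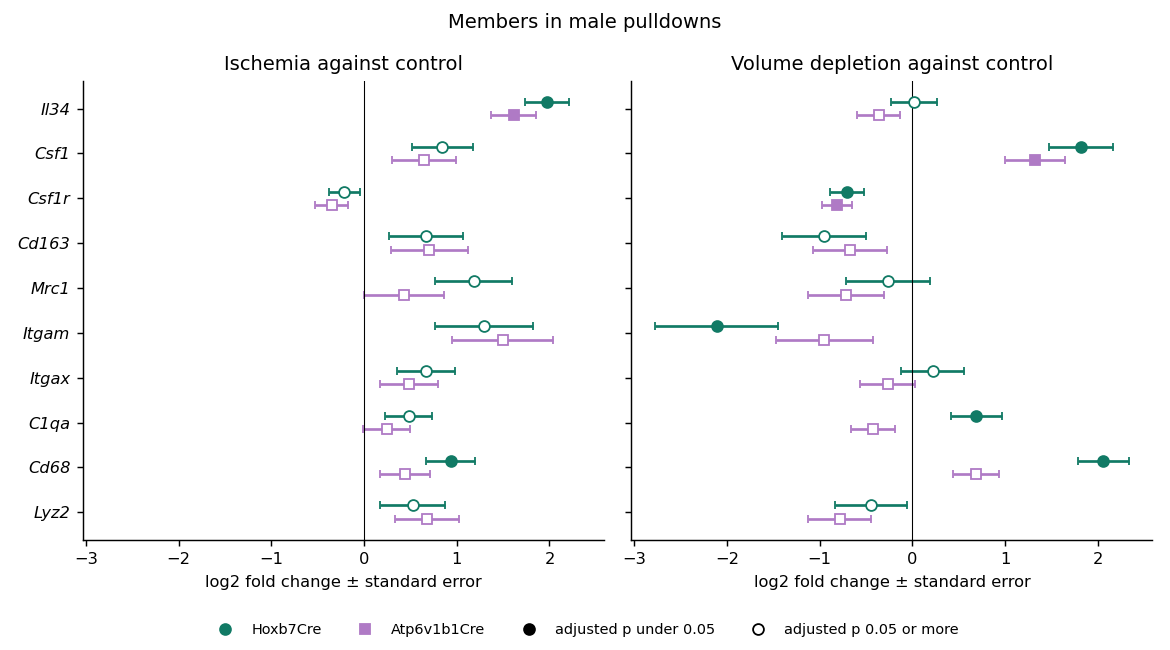
Log2 fold change with its standard error for the 10 members in males, for ischemia and for volume depletion against control in both drivers. Filled points have an adjusted p under 0.05. Il34 is the member furthest to the right with ischemia, and Csf1 and Cd68 are furthest to the right with volume depletion in Hoxb7Cre males.

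The receptor fell with volume depletion in males of both drivers. Csf1r stood at 37.5, 37.8, 33.3 and 39.7 CPM in Hoxb7Cre male controls and at 23.5, 21.8 and 22.6 CPM after volume depletion. In Atp6v1b1Cre males it was 88.2, 70.8, 68.9 and 59.0 CPM in controls and 51.0, 36.8, 36.3 and 37.4 CPM after volume depletion. In neither driver did the groups overlap, and the falls of Csf1r passed the test without reaching 2-fold (-0.71 ± 0.18, adjusted p = 0.00377, and -0.81 ± 0.16, adjusted p = 0.00236). With ischemia Csf1r differed from control by -0.21 ± 0.16 and -0.35 ± 0.18, which did not pass.

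Itgam, which encodes the integrin alpha chain CD11b of monocytes, neutrophils and many macrophages, separated the 2 stimuli most widely. Hoxb7Cre male controls held 7.08 and 5.67 CPM in series A and 2.86 and 1.69 CPM in series B. Ischemic libraries held 12.2, 11.5, 7.94 and 10.5 CPM, and volume-depleted libraries 0.806, 1.12 and 1.03 CPM. Volume depletion thus lay below all controls (4.32-fold, -2.11 ± 0.66, adjusted p = 0.0154), and the ischemic difference of 1.29 ± 0.53 did not pass (adjusted p = 0.153). The fall of Itgam was no longer called without volume depletion replicate 4 or control replicate 2 (range over libraries left out -2.38 to -1.77). Between the stimuli Itgam was 10.6-fold lower with volume depletion in Hoxb7Cre males (-3.41 ± 0.67, adjusted p = 4.38e-04) and 5.44-fold lower in Atp6v1b1Cre males (-2.44 ± 0.56, adjusted p = 0.00206). Neither difference is taken against the controls, though these share in the estimate of spread behind the p-values. All the Hoxb7Cre libraries compared are of series A. In Atp6v1b1Cre males the ischemic libraries held 40.8, 18.4 and 13.2 CPM and the volume-depleted ones 9.58, 4.34, 1.53 and 1.45 CPM.

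Cd163, a scavenger receptor for hemoglobin, and Mrc1, the mannose receptor, are genes of tissue macrophages and both stood lower with volume depletion than with ischemia. In Hoxb7Cre males ischemic libraries held 8.75, 6.24, 6.20 and 5.96 CPM of Cd163 and volume-depleted libraries 1.96, 1.63 and 3.04 CPM, a 3.08-fold difference (-1.62 ± 0.46, adjusted p = 0.0083). Mrc1 was 17.0, 12.3, 13.0 and 13.3 CPM against 5.74, 4.85 and 4.81 CPM, a 2.72-fold difference (-1.44 ± 0.46, adjusted p = 0.0176) that was not called without volume depletion replicate 6 or 7. In Atp6v1b1Cre males the difference of Cd163 was -1.38 ± 0.43 (adjusted p = 0.0171), not called without ischemia replicate 1 or 4, and that of Mrc1 was -1.15 ± 0.44 (adjusted p = 0.0508).

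Against control these genes depended on the library series. Hoxb7Cre male controls held 7.54 and 5.47 CPM of Cd163 and 11.6 and 8.57 CPM of Mrc1 in series A, and 2.17 and 1.97 CPM of Cd163 and 2.72 and 1.78 CPM of Mrc1 in series B. The ischemic difference of Mrc1, 1.18 ± 0.41 over all controls (adjusted p = 0.0905), was 0.45 within series A, and that of Cd163 went from 0.67 to 0.05. The difference of Cd163 with volume depletion, -0.95 ± 0.46 over all controls (adjusted p = 0.112), was -1.55 within series A (adjusted p = 1.1e-04). In Atp6v1b1Cre males within series A, Cd163 (1.03, adjusted p = 0.018) and Mrc1 (0.85, adjusted p = 0.012) were higher after ischemia, while the 1 ischemic library of series B held 2.79 and 4.76 CPM, and over both series neither passed the test.

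Cd68, a lysosomal glycoprotein of phagocytes that other cells with many lysosomes also express, rose with volume depletion in Hoxb7Cre males, in which Csf1r and Itgam fell. Controls held 2.57, 2.52, 3.46 and 2.11 CPM, ischemic males 4.15, 5.47, 5.13 and 5.39 CPM, and volume-depleted males 8.66, 8.94 and 15.6 CPM. The 3 groups did not overlap. Cd68 rose 4.17-fold with volume depletion (2.06 ± 0.27, adjusted p = 5.62e-06) and passed the test with ischemia at 1.91-fold (0.93 ± 0.26, adjusted p = 0.0348). When each library was left out in turn the ischemic change of Cd68 ran from 0.84 to 1.06 and still passed only without ischemia replicate 4 or control replicate 4. In Atp6v1b1Cre males it was 3.64, 5.76, 3.43 and 4.15 CPM in controls and 3.80, 5.70, 9.85 and 7.87 CPM after volume depletion, where the 2 higher libraries were those of series B (0.69 ± 0.25, adjusted p = 0.0713). The response of Cd68 to volume depletion differed between the drivers (-1.37 ± 0.37, Atp6v1b1Cre minus Hoxb7Cre, adjusted p = 0.0357), and this was the only called member, where 2.93% of all genes were called. It lost the call when any 1 of 8 of the 15 libraries was left out, among them Hoxb7Cre volume depletion replicate 7 and Hoxb7Cre control replicates 2, 3 and 5, with a range of -1.60 to -1.04.

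C1qa and Lyz2, which differed between the drivers in controls, passed few tests of the stimuli. C1qa stood at 4.63, 3.54, 5.09 and 2.30 CPM in Hoxb7Cre male controls and 5.64, 6.08 and 7.03 CPM after volume depletion, and the difference only just passed the test (0.69 ± 0.27, adjusted p = 0.0497) and was lost without any library of these groups other than control replicates 2 and 4 (range 0.51 to 0.85). In Atp6v1b1Cre males C1qa was 16.5 to 25.3 CPM in controls and 9.28 to 18.4 CPM after volume depletion, which did not pass (-0.42 ± 0.24, adjusted p = 0.249). Its nearest genes over the male pulldowns were the other C1q chains C1qc and C1qb (r = 0.98 each), then Laptm5 and Fcgr3. Lyz2 passed no test against control in males. It was 2.76-fold lower with volume depletion than with ischemia in Atp6v1b1Cre males (-1.46 ± 0.36, adjusted p = 0.00342). Itgax, which encodes the integrin alpha chain CD11c of dendritic cells and some macrophages, passed no test of the stimuli in males. Its level stayed between 1.21 and 11.2 CPM.

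**Figure D4:**
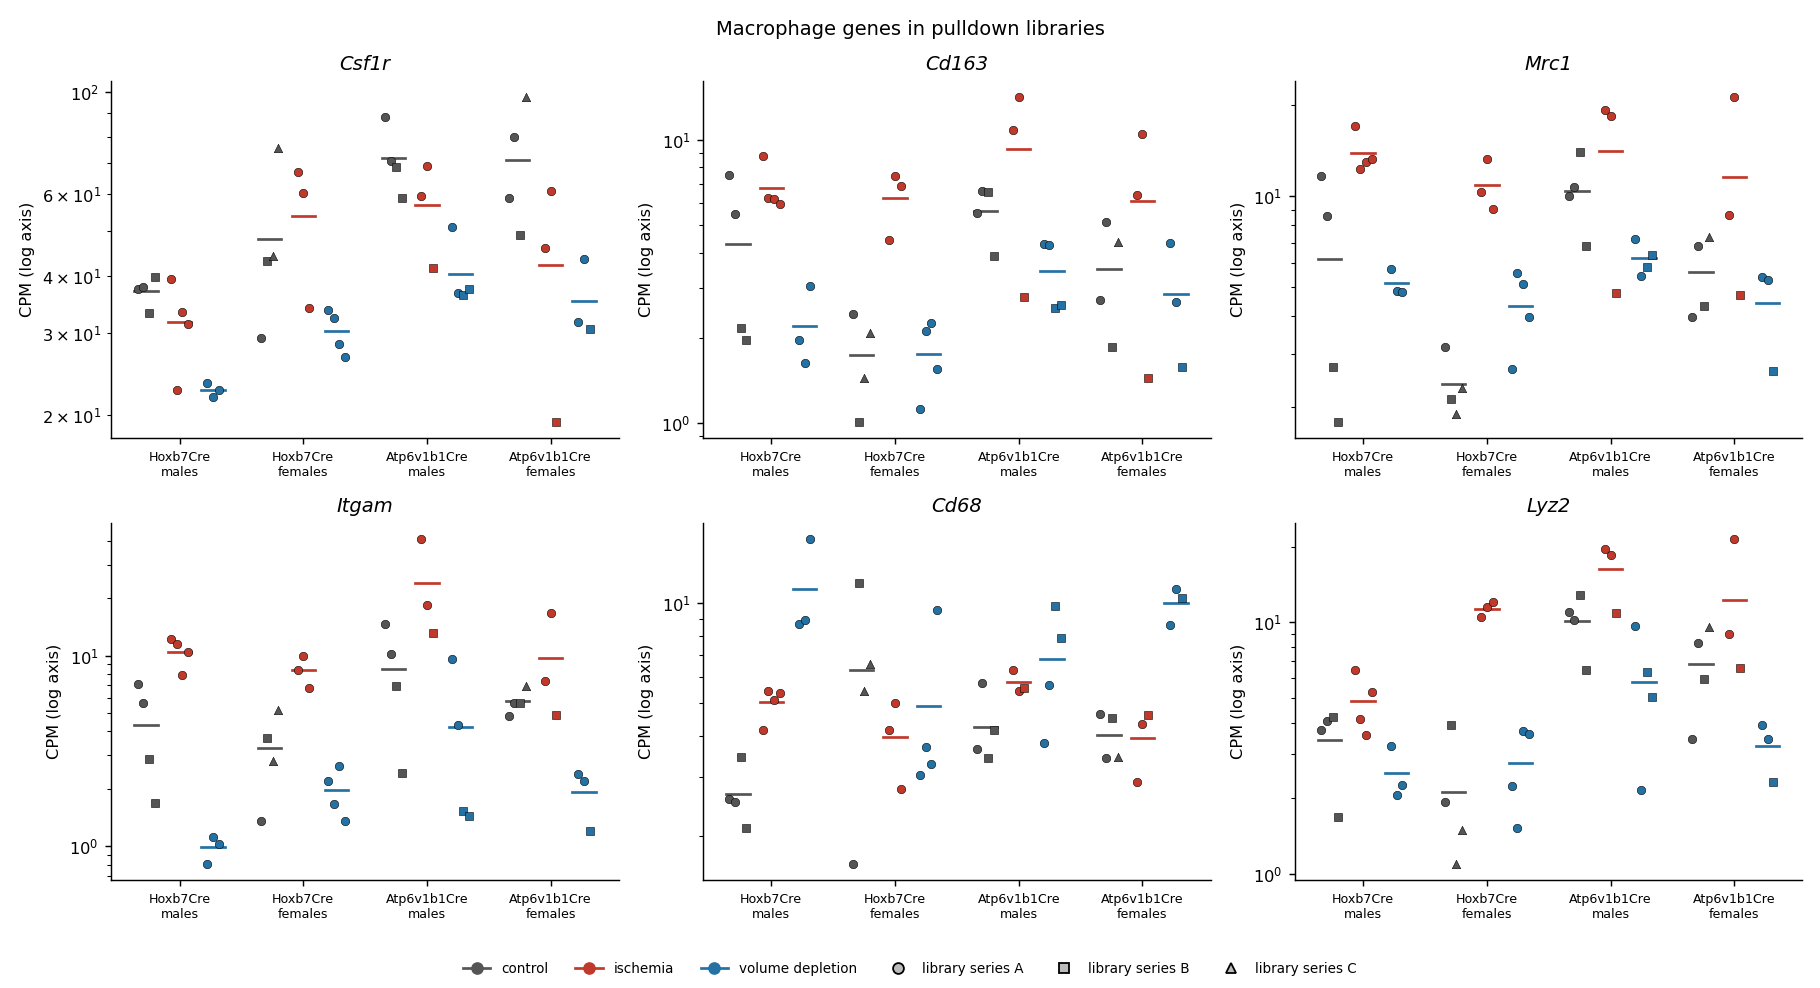
CPM, on a log axis, of Csf1r, Cd163, Mrc1, Itgam, Cd68 and Lyz2 in each pulldown library of 5.5 months by driver, condition and sex, with a bar at the mean of each group and the library series as the shape of the point. Among Hoxb7Cre males Itgam is lowest in the volume-depleted libraries (0.806 to 1.12 CPM) and Cd68 is highest there (8.66 to 15.6 CPM).

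Groups of males did not overlap for 5 members with ischemia and 5 with volume depletion against control in Hoxb7Cre pulldowns, where 15.9% and 39.5% of all genes did not, and for 1 and 2 members in Atp6v1b1Cre pulldowns, where 20.6% and 14.5% did not. Of the 4 male comparisons with control, volume depletion in Hoxb7Cre mice had the most called members: Csf1 and Cd68 were called higher and Itgam lower, 3 of 10 where 16.4% of all genes were called. In Atp6v1b1Cre males Csf1 was the 1 called member, where 5.15% were. Between the stimuli 5 members were called in Hoxb7Cre males (Cd68 higher, and Il34, Cd163, Mrc1 and Itgam lower with volume depletion) and 4 in Atp6v1b1Cre males (Il34, Cd163, Itgam and Lyz2 lower), where 14.7% and 11.6% of all genes were called. For ischemia, 0 of 10 members differed in response between the drivers by edgeR or by DESeq2, where 3.49% of all genes were called by edgeR, and 0 had an unadjusted p under 0.05, where 23.4% of all genes did. All these comparisons within a driver share their control or injured libraries, so their values are not independent of each other.

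The counts of the gene lists that follow stand beside all 21175 genes, of which 322 were called higher and 166 lower with ischemia in Hoxb7Cre males and 242 and 356 in Atp6v1b1Cre males. With volume depletion 2035 genes were called higher and 1443 lower in Hoxb7Cre males and 730 and 361 in Atp6v1b1Cre males.

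The wider CSF1 receptor pathway, a list of 30 genes for signal adaptors, myeloid transcription factors and other growth factors, all tested, held 7 called higher and 0 lower after volume depletion in Hoxb7Cre males. Among them were Csf3, the granulocyte growth factor (3.45), Cebpb (2.89), Egr2 (2.61), Irf8 (2.02), Inpp5d (1.98) and Il3ra (1.67), each as a log2 fold change. Of these genes Csf3 (2.19) and Cebpb (2.06) were also called in Atp6v1b1Cre males, and 0 of the list fell. With ischemia 3 were called in Hoxb7Cre males, the Src family kinase Fgr (1.52), Egr2 (1.75) and Csf2rb (1.36), and 1 in Atp6v1b1Cre males, Trem2 (3.75). The medians of the list were 0.24 (Hoxb7Cre) and 0.17 (Atp6v1b1Cre) with volume depletion and 0.41 and 0.26 with ischemia, where the median of all genes was near 0. Several of these transcription factors are also made by epithelium, and which cells held them was not tested.

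Resident macrophage genes (28 tested) did not move as 1 group. With ischemia 5 rose in Hoxb7Cre males and 3 in Atp6v1b1Cre males, among them the scavenger receptor Msr1 in both (2.54 and 2.63), and 0 fell by the same call. With volume depletion in Hoxb7Cre males 6 rose and 5 fell. Of these C1qb (1.11), the class II genes H2-Ab1 (1.13) and H2-Eb1 (1.02), Cd86 (1.42), Fcgr1 (1.18) and Pf4 (2.72) rose, and Adgre1, which encodes F4/80 (-1.19), Folr2 (-1.22), Mpeg1 (-1.23) and Cd84 (-1.06) fell. In Atp6v1b1Cre males 0 of 28 were called with volume depletion, and set against ischemia 12 were lower and 0 higher. Of all 21175 genes 930 were called lower and 1516 higher in that contrast between the stimuli. In Hoxb7Cre males 8 of the list were lower and 4 higher, in Hoxb7Cre females 6 and 0, and in Atp6v1b1Cre females 4 and 1. Of all genes 1387, 162 and 1784 were lower and 1725, 391 and 2430 higher in these 3 groups. The summed level of the list was 196 to 256 CPM in Hoxb7Cre male controls, 253 to 275 after ischemia and 243 to 309 after volume depletion, and in Atp6v1b1Cre males 474 to 591, 330 to 484 and 302 to 462 CPM. The sums of control and volume-depleted libraries did not overlap in Atp6v1b1Cre males, those of control and ischemic libraries did, and in Hoxb7Cre males the volume-depleted sums overlapped both other groups. Of the 28 genes 0 to 5 were at 0 counts in any 1 library.

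Of 14 genes of recruited monocytes, all tested, some were called higher with ischemia and 0 with volume depletion in males. In Atp6v1b1Cre females 1 was called higher and 2 lower with volume depletion, where 1335 and 760 of all genes were. In Hoxb7Cre females 0 were called with volume depletion. In Atp6v1b1Cre males 5 rose with ischemia, Chil3 (6.50), Spp1 (2.46), Arg1 (2.30), Plac8 (1.42) and Vcan (1.33), and in Hoxb7Cre males 2, Spp1 (1.98) and Fn1 (1.31), genes that injured tubule and stroma also make. With volume depletion Ccr2, the receptor that brings monocytes from the blood, fell in Hoxb7Cre (-3.46) and in Atp6v1b1Cre males (-1.85). Set against ischemia in Atp6v1b1Cre males, 10 of the 14 were called lower with volume depletion and 0 higher. In Hoxb7Cre males 3 were lower, in Hoxb7Cre females 4 and in Atp6v1b1Cre females 6, and 0 were higher. Of 15 neutrophil genes tested, 3 rose with ischemia in Hoxb7Cre males (S100a9, Mmp8 and Trem1) and 2 in Atp6v1b1Cre males (S100a9 and Trem1). With volume depletion another 3 rose in Hoxb7Cre males, Mmp9 (1.39), Il1b (2.43) and Il1r2 (2.75), and 0 in Atp6v1b1Cre males. Itgam is a gene of these cells too, and their part in its change was not tested.

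Pan-leukocyte genes gave few calls against control, and dendritic genes gave more. With volume depletion 2 dendritic genes were called higher and 2 lower in Hoxb7Cre males, and 0 and 3 in Atp6v1b1Cre males. Of 12 pan-leukocyte genes, 0 were called with ischemia in either driver and 1 fell with volume depletion, Itgal in Atp6v1b1Cre males (-1.15), where the list's median was -0.84. Its summed level there was 150 to 222 CPM in controls and 89.2 to 155 CPM after volume depletion. Set against ischemia in these males, 6 of the 12 were called lower with volume depletion and 0 higher. In Hoxb7Cre males 2 were lower, in Hoxb7Cre females 0 and in Atp6v1b1Cre females 3, and 0 were higher. Of the 9 dendritic genes Xcr1 fell with volume depletion in both drivers (-3.89 and -3.39), and Siglech did too (-3.02 and -1.86), while Zbtb46 (1.58) and Ccr7 (1.75) rose in Hoxb7Cre males and Clec9a (-1.38) fell in Atp6v1b1Cre males. Of 12 lymphocyte genes 3 fell with volume depletion in Atp6v1b1Cre males, Ms4a1 (-2.45), Cd8a (-1.55) and Cd3e (-1.18), and 0 were called in Hoxb7Cre males. Collecting duct genes fell in the same Hoxb7Cre libraries in which Csf1 and Cd68 rose, 7 of 12 with a list median of -1.16, and the part of this change in the members' values was not tested.

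Hoxb7Cre females gave other calls than Hoxb7Cre males. With ischemia Il34 did not pass the test: controls held 5.38, 15.7, 11.7 and 16.7 CPM and ischemic females 10.2, 18.0 and 6.37 CPM, groups that overlap (-0.10 ± 0.44, adjusted p = 0.956). With the library series as a covariate the difference of Il34 was 0.72 (adjusted p = 0.431), and within series A, against 1 control, 1.09 (adjusted p = 0.799). Another 3 of the 10 members were called higher, where 2.08% of all genes were called. They were Lyz2 (2.42 ± 0.44, adjusted p = 0.013), Mrc1 (2.20 ± 0.40, adjusted p = 0.013) and Cd163 (1.85 ± 0.49, adjusted p = 0.047). Lyz2 was 1.10 to 3.92 CPM in control and 10.5, 11.5 and 12.0 CPM in ischemic females, and Mrc1 was 1.89 to 3.16 CPM against 9.02 to 13.3 CPM, so neither overlapped. With the library series as a covariate all 3 lost the call (Lyz2 2.25, adjusted p = 0.091, Mrc1 1.84, adjusted p = 0.074, and Cd163 1.40, adjusted p = 0.172), and none of the 3 passed within series A (2.55, 1.77 and 1.36, adjusted p = 0.261, 0.416 and 0.654).

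**Figure D5:**
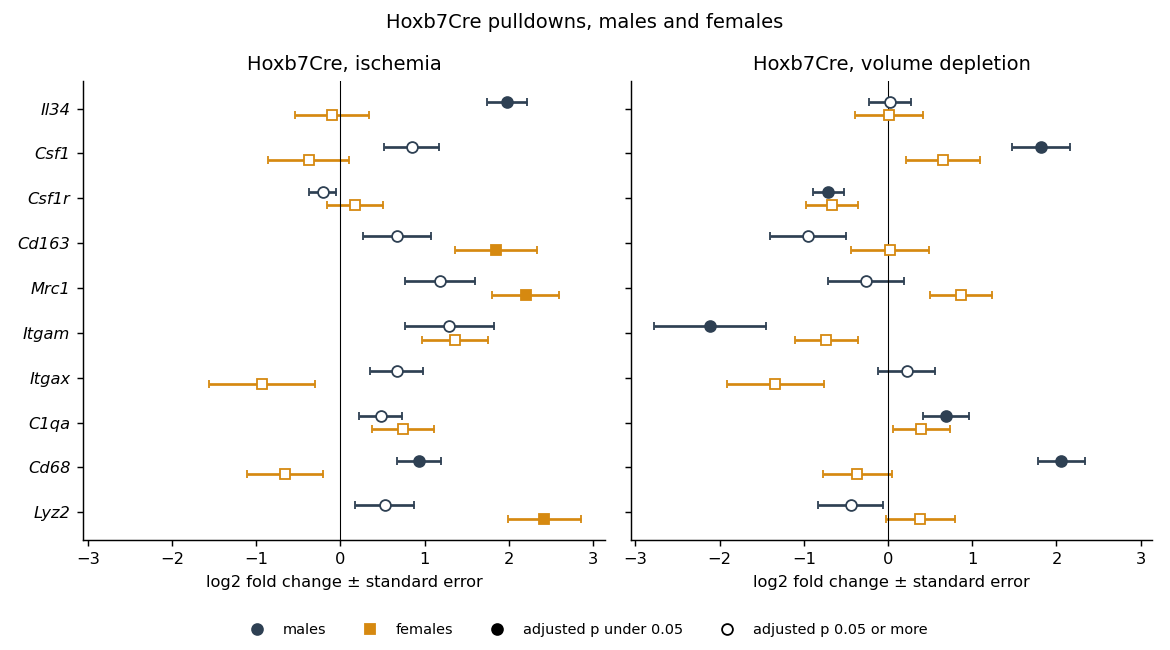
Log2 fold change with its standard error for the 10 members in males and in females, for each stimulus against control in Hoxb7Cre mice. Filled points have an adjusted p under 0.05, and Il34 with ischemia stands at 1.98 in males and -0.10 in females.

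Tested directly, the response to ischemia in Hoxb7Cre mice differed by sex for Il34 (female minus male -2.10 ± 0.52, adjusted p = 0.0118), Cd68 (-1.61 ± 0.54, adjusted p = 0.0468) and Lyz2 (1.88 ± 0.58, adjusted p = 0.0337), 3 of 10 members where 6.98% of all genes were called. The response to volume depletion differed for Cd68 (-2.43 ± 0.52, adjusted p = 0.00351), 1 of 10 where 10.8% were called. With the library series as a covariate Il34 (-1.88) and Cd68 with volume depletion (-2.45) still passed, and Cd68 (adjusted p = 0.051) and Lyz2 (adjusted p = 0.051) with ischemia did not. Within series A, where Hoxb7Cre females have 1 control, 0 of the 4 differences passed: Il34 was -0.98, Lyz2 2.23, Cd68 0.29 with ischemia and -0.57 with volume depletion. Leaving out 1 library, Il34 lost the call only without female ischemia replicate 3, Cd68 with ischemia in 13 of 15 fits and Lyz2 in 9 of 15. The 1 control of series A held the least Il34 (5.38 CPM) and the least Cd68 (1.64 CPM) of the female controls, whose others held 5.44 to 11.5 CPM of Cd68, so sex and library series cannot be fully told apart here. Within series A the changes of Cd68 in Hoxb7Cre females were 1.26 with ischemia (adjusted p = 0.804) and 1.56 with volume depletion (adjusted p = 0.69), the direction seen in males.

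In Hoxb7Cre females 0 of 10 members were called with volume depletion by edgeR, where 0.0992% of all genes were, and 3 had an unadjusted p under 0.05, where 7.91% of all genes did. DESeq2 was not run on the females alone. Between the stimuli, which in Hoxb7Cre mice lie within series A and need no control, Cd163 (-1.83), Itgam (-2.10) and Lyz2 (-2.04) were called lower in females with volume depletion than with ischemia, 3 of 10 where 2.61% of all genes were called. Ischemic Hoxb7Cre females held 8.43, 9.95 and 6.75 CPM of Itgam and volume-depleted females 2.19, 1.66, 2.65 and 1.36 CPM.

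In Atp6v1b1Cre females Il34 rose with ischemia. Il34 was 9.67, 6.54, 18.5 and 10.9 CPM in controls, 24.6, 19.4 and 61.8 CPM after ischemia and 4.70, 7.62 and 8.71 CPM after volume depletion. No ischemic library overlapped a control, and the rise was 3.05-fold (1.61 ± 0.43, adjusted p = 0.0496), the 1 called member where 1.15% of all genes were called. With volume depletion Cd68 rose (1.32 ± 0.44, adjusted p = 0.0424) and Csf1r (-1.01 ± 0.34, adjusted p = 0.0455) and Itgam (-1.56 ± 0.42, adjusted p = 0.0167) fell, 3 of 10 where 9.89% were called. With the library series as a covariate Il34 with ischemia (1.63, adjusted p = 0.0122) and Itgam and Cd68 with volume depletion (-1.46 and 1.33) kept the call and Csf1r lost it (-0.82, adjusted p = 0.0528). Within series A none of the 4 passed (Il34 1.39, Csf1r -0.89, Itgam -1.19 and Cd68 1.28, adjusted p = 0.081, 0.0735, 0.0786 and 0.107). Csf1 was 39.5, 35.2 and 17.1 CPM against 13.1 to 23.6 CPM in controls, which did not pass (0.89 ± 0.47, adjusted p = 0.196). Between the stimuli 5 members were called (Il34, Mrc1, Itgam and Lyz2 lower and Cd68 higher with volume depletion), where 19.9% of all genes were.

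No member's response differed by sex in Atp6v1b1Cre mice: 0 of 10 were called for either stimulus by edgeR or DESeq2 and 0 had an unadjusted p under 0.05. Among all genes 0 (0%) were called by edgeR, 676 (3.19%) and 1756 (8.29%) had an unadjusted p under 0.05, and DESeq2 called 1 and 32. The 95% interval of the Il34 difference with ischemia ran from -1.09 to 1.07, so a difference of 2-fold could not be told from none.

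In control mice Il34 differed by sex in total kidney RNA, a comparison chosen after its values were seen. The 8 males of 5.5 months held 19.8 to 47.2 CPM (median 31.5) and the 8 females 7.51 to 13.6 CPM (median 11.5), with no overlap. Over all control ages the male level of Il34 was 2.66-fold higher (log2 1.41 ± 0.17, edgeR adjusted p = 1.19e-08), the 1 called member where 5.81% of all genes were called. In pulldowns the same difference was 0.19 ± 0.25 in Hoxb7Cre (adjusted p = 0.655) and 0.73 ± 0.25 in Atp6v1b1Cre mice (adjusted p = 0.0941), and whether it differs between kinds of library was not tested.

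In Hoxb7Cre control pulldowns Cd163 (1.42 ± 0.34, adjusted p = 0.00571) and Mrc1 (1.31 ± 0.32, adjusted p = 0.00684) were higher in males, 2 of 10 members called where 3.25% of all genes were. With the library series as a covariate they were 1.20 and 1.11. These controls took in both ages. Mice of 3 months were 2 females in Hoxb7Cre pulldowns and 3 males in Atp6v1b1Cre pulldowns. Sex is thus not fully told apart from age in these values over both ages. Each driver also had 4 male and 4 female control pulldowns of 5.5 months. In Atp6v1b1Cre control pulldowns 0 members were called by edgeR or DESeq2, where 1.82% of all genes were called by edgeR, and 4 had an unadjusted p under 0.05, where 13.5% of all genes did.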

How the data were processed

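Pulldown and total kidney RNA of 69 libraries had been sequenced. The authors deposited raw read counts per gene symbol, made with CASAVA 1.8.2, Trimmomatic 0.36, STAR 2.5.3a on mm10 and HTSeq 0.6.1p2 at default settings, per the submitters' processing notes and the study's methods. At those settings a read with several placements is not counted. Each library held 12618100 to 30305500 counts, so the rarest members rest on few reads and are less precise.

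Groups, sex, age and replicate numbers came from the labels. Genes with at least 2 counts over all libraries were kept (21175 of 24411), scaled by TMM and tested with edgeR 4.0.16's quasi-likelihood test (limma 3.58.1, R 4.3.3). Log2 CPM, used for the correlations between genes, carry a prior count of 2. The stimuli were compared in a fit of the 22 male pulldowns of 5.5 months, sex differences in 43 pulldowns and controls in 42 libraries. The scripts were tested on simulated data. Alternatives were DESeq2 1.42.0, other filters, other sample sets, the replicate number as a block, the library series, and each library left out. Fits within series B, of both sexes within series A, of control sexes and of sex differences by series were added after seeing the data.

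The members and lists were chosen with earlier results of these data known. All members are named, and list genes where they were called in at least 1 comparison of a stimulus with control in males. A limit of 8 a list was planned, and the CSF1 receptor pathway and resident macrophage lists exceed it. For Il34, Csf1 and C1qa the 5 genes of highest Pearson r of log2 CPM were named, among those with a mean of at least 10 counts. A few genes that these rules name are not reported here. RefSeq promoters came from GRCm38.p6.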

Additional observations from a re-analysis of the deposited data

Results flagged for a closer look

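In 7 of 90 sets 1 library lay far outside the others in CPM, judged by its gap to the nearest library over the full range. A set is 1 member in 1 group of 4 to 8 libraries, all of mice of 5.5 months. For a single set this happens by chance about 1 in 20 times. The sets share libraries between members and are not independent, so 7 of 90 cannot be set against that rate. Csf1 was 33.2 in Hoxb7Cre control replicate 6 (female), against 14.8 to 16.4 in the other female controls of 5.5 months. Csf1r was 51.0 in Atp6v1b1Cre volume depletion replicate 1 (male), against 36.3 to 37.4. Cd163 was 8.75 in Hoxb7Cre ischemia replicate 4 (male), against 5.96 to 6.24. Cd68 was 9.55 in Hoxb7Cre volume depletion replicate 5 (female), against 3.05 to 3.69. Itgax was 7.71 in Atp6v1b1Cre control replicate 13 (female), against 2.73 to 3.45, and 7.27 in total RNA control replicate 8 (male), against 1.98 to 3.77. Lyz2 was 68.5 in total RNA control replicate 12 (female), against 17.9 to 39.4.

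In 5 cases the response itself differed between groups by edgeR's quasi-likelihood test, each as a difference of log2 fold changes. Cd68 answered volume depletion less in Atp6v1b1Cre than in Hoxb7Cre males (-1.37). In Hoxb7Cre mice the female response to ischemia was below the male one for Il34 (-2.10) and Cd68 (-1.61) and above it for Lyz2 (1.88), and the female response to volume depletion was below it for Cd68 (-2.43). What part the series of the control libraries has in these differences cannot be told apart from sex in Hoxb7Cre mice.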

How the results depend on the processing

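Against control in males, the rise of Il34 with ischemia and of Csf1 with volume depletion and the fall of Csf1r with volume depletion passed the test in every fit that left out 1 library. Counts of called members moved as follows. Hoxb7Cre ischemia (1 in males) gave 2 with DESeq2, with no fold change threshold, with only the groups compared and with the library series as a covariate, 5 with both sexes, 3 in females alone, and 1 to 2 without 1 library. Hoxb7Cre volume depletion (3) gave 5 with no fold threshold, 0 in females and 2 to 4 without 1 library. Atp6v1b1Cre ischemia (1) gave 2 with controls of 3 months, both sexes, the series covariate or series B, 3 within series A and 4 in both sexes within series A. Atp6v1b1Cre volume depletion (1) gave 2 with no fold threshold, both sexes or the series covariate, 3 in females and in series B, 0 in both sexes within series A, and 1 to 3 without 1 library. Between the stimuli, Hoxb7Cre (5) gave 3 in females and 3 to 6 without 1 library, and Atp6v1b1Cre (4) gave 2 within series B. The driver difference with volume depletion (1) gave 2 with DESeq2, 3-month controls or the series covariate, 3 within series A, 0 with both sexes, females, only the groups compared or both sexes within series A, and 0 to 1 without 1 library. Sex differences in Hoxb7Cre mice with ischemia (3) gave 1 with the series covariate, 0 within series A and 0 to 4 without 1 library, and with volume depletion (1) 0 within series A and 1 to 3 without 1 library. In controls, Atp6v1b1Cre pulldown against total RNA (1) gave 6 with no fold threshold and 3 in males, and against Hoxb7Cre (2) 6 and, in females, 4. The cause of these moves was not tested.

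Direction turned in 9 cases. In females, Il34 (-0.10) and Cd68 (-0.66) with ischemia, Cd68 with volume depletion (-0.37) and Il34 between the stimuli (0.10) turned in Hoxb7Cre mice, and the driver difference of Cd68 was 1.69. Within series A these female values were 1.09, 1.26, 1.56, 0.11 and -0.28. That difference was 0.26 with both sexes, the sex difference of Cd68 with ischemia was 0.29 within series A, and in control males Hoxb7Cre pulldown against total RNA gave 0.10 for Mrc1 and -0.48 for Cd68.

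Libraries of the same replicate number in different groups were not more alike than others. Of 8 such pairs 1 had a correlation of deviations above 0.1 (mean r -0.0887), against 20 of 72 pairs with other numbers (mean 0.00976). By library series, 17 of 46 pairs of the same series lay above 0.1 (mean 0.0843), against 4 of 34 across series (mean -0.114). Some same-numbered pairs cross series and all are few, so whether the numbers pair mice cannot be settled. With the replicate number as a block the counts were 3 and 3 in Hoxb7Cre (ischemia and volume depletion), 0 and 3 in Atp6v1b1Cre, 7 and 5 between the stimuli, 0 for the driver difference and 0 for both Hoxb7Cre sex differences.

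In Hoxb7Cre pulldowns Itgam, Itgax, Cd163, Mrc1, Cd68, C1qa and Lyz2 often lie under 5 CPM. What part counting noise has in their spread was not tested.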
